A study of Ovis aries with 6 samples.

Results

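ASIP and TYR are the 2 genes of coat colour compared here, measured in dorsal skin of newborn Hu lambs. They were found as the array probes, without controls, whose RefSeq accession belongs to either gene. This gave 4 of 15008 probes, for 2 of the 500 genes named here: A_70_P027461 and A_70_P027462 for ASIP (NM_001134303), and A_70_P008181 and A_70_P008182 for TYR (NM_001130027). The lambs were 2 days old, 3 with a large wave and 3 with a small wave coat, and no treatment or genotype is given in the labels. By the series' design text all lambs had the same sire, and the 2 coats were paired within dams. Hu sheep are a Chinese breed known for the waved lambskin of the newborn, and the study compared gene expression between the coat patterns. RNA of 1 lamb was hybridised to 1 one-colour array, and all 6 arrays lay on 1 slide.

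ASIP encodes the agouti signalling protein, a secreted protein of the skin that blocks the melanocortin 1 receptor on pigment cells. When the receptor is stimulated by peptides cut from the POMC precursor, melanocytes make dark eumelanin; when agouti blocks it, they turn to pale pheomelanin or make little pigment. TYR encodes tyrosinase, the copper enzyme of melanocytes that catalyses the first steps from tyrosine to melanin. In sheep, a duplication that holds ASIP is known as a cause of the white coat; the ASIP genotype of these lambs is not given.

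The brighter ASIP probe was among the most intense signals on every array, while the better TYR probe lay near the middle of the range. A_70_P027461 of ASIP had processed signals of 11459, 7714 and 12472 in large wave replicates 1, 2 and 3. In small wave replicates 1, 2 and 3 it had 14584, 16575 and 5122. The signal was lowest in small wave replicate 3 and highest in small wave replicate 2, and the groups overlapped on this unscaled scale. Between 0.782 and 1.93% of the spots on an array were brighter than this spot, so that it held a similar place on all 6 arrays.

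A_70_P008181 of TYR had signals of 66.4, 43.0 and 20.3 in large wave replicates 1 to 3. In small wave replicates 1 to 3 the signals were 44.5, 27.8 and 5.74. The lowest was not well above background, so tyrosinase was detected with this probe on 3 of 3 large wave and 2 of 3 small wave arrays. Small wave replicate 3 was also the array with the lowest share of all spots well above background. This share was 51.4% there and 57.3 to 70.7% on the other arrays. The probe stood at percentiles 40.2 to 55.2 of its array's spots. The error that the scanner software gives for a spot was 10% of this ASIP signal on each array. For TYR it ran from 10.4% in large wave replicate 1 to 28.0% in small wave replicate 3.

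The other probe of each gene was dimmer. A_70_P027462 of ASIP had signals of 533.8, 333.4 and 611.0 in large wave replicates 1, 2 and 3. The small wave lambs, in the same order, gave 571.0, 922.6 and 253.5. It was well above background on all 6 arrays, but its spot in large wave replicate 2 was marked as an outlier for uneven pixels and was left out of the test. A_70_P008182 of TYR gave 1.40 to 3.09, beside medians of 1.59 to 2.49 for the negative control spots, and was not well above background on any array. It gives no level of tyrosinase.

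**Figure D1:**
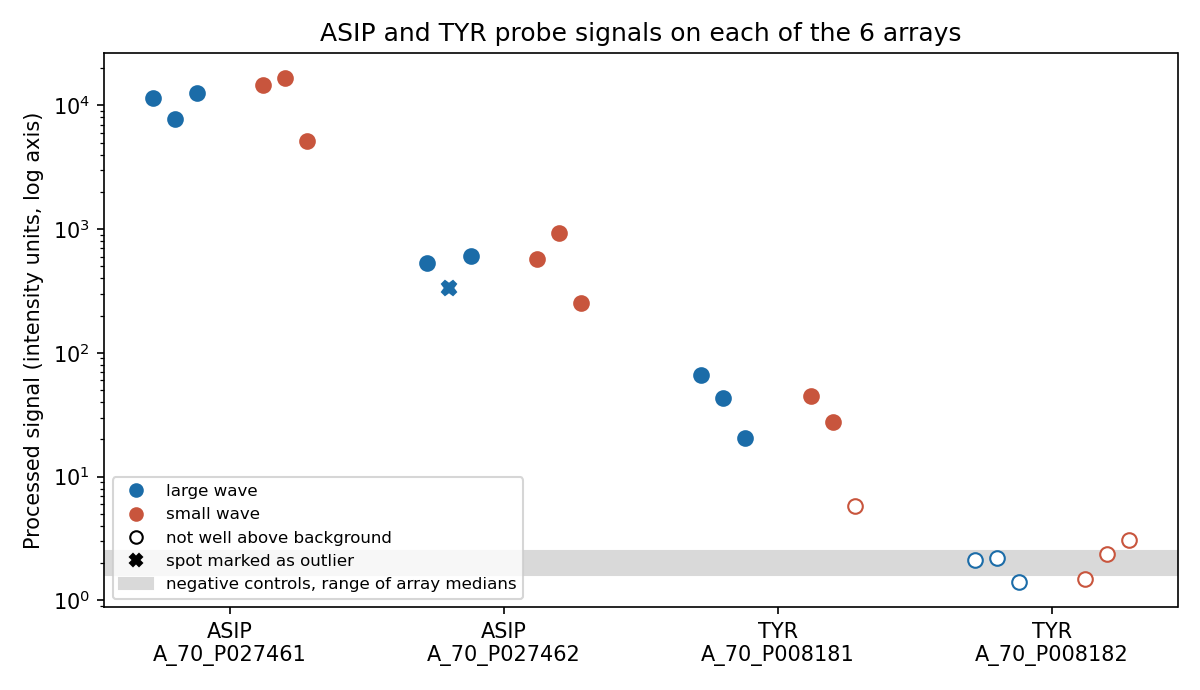
Processed signal (log axis) of the 4 probes on the 6 arrays, with 1 point for each array in the order of replicates 1 to 3 within a group; open points were not well above background, the cross is a spot marked as an outlier, and the grey band spans the array medians of negative controls. The ASIP probe A_70_P027461 lies between 5122 and 16575, the TYR probe A_70_P008181 between 5.74 and 66.4, and the other TYR probe at the level of the controls.

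The distance between ASIP and TYR signals is not a ratio of transcripts, because a probe's brightness depends on its sequence as well as on its target. The pair of ASIP probes shows how large this part can be: on the same arrays and for the same transcript accession, their signals differed by 18.0- to 25.5-fold. This distance was stable, with a log2 ratio of 4.41 ± 0.17 (SD, n = 6, the marked spot included), so the probes ranked the arrays by nearly the same steps. The log2 ratio of ASIP A_70_P027461 to TYR A_70_P008181 was 8.59 ± 0.99 (SD, n = 6). Its spread over the arrays was therefore larger than that between the 2 ASIP probes, and only its differences between arrays are read below.

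The 75th percentile of the signal, a measure of array brightness, ran from 204.7 to 391.5 in large wave and from 94.7 to 284.8 in small wave arrays. For the comparison of coats, log2 signals were taken minus the log2 of this percentile, called log2 scaled signals here. Of 10041 probes tested in this way with limma, 0 passed an adjusted p of 0.05 (0% in either direction) and 384 (3.82%) had an unadjusted p under 0.05. That unadjusted count depended on single arrays: leaving out small wave replicate 1 raised it to 1764, while 154 were left when large wave replicate 3 was dropped and 198 on dropping small wave replicate 3. Array weights gave 2172, a block for the replicate number 585, brightness as a covariate 252 and a block for the slide row 141.

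The ASIP signal had lower values in large wave than in small wave skin, but the difference did not pass the test. On the log2 scaled signal, A_70_P027461 had 4.87, 5.24 and 5.65 in large wave replicates 1 to 3, against 5.68, 6.77 and 5.76 in the small wave lambs of the same numbers. The 3 large wave values all lay below the 3 small wave values, with large wave replicate 3 just under small wave replicate 1. Among the 9223 probes measured on all 6 arrays, 4.89% were lower in large wave arrays without overlap. This order depended on the scaling. The ASIP groups overlapped after quantile normalization and in the authors' deposited table, whose ASIP values were nearly the same. The groups also overlapped with the percentile taken over probes detected on all 6 arrays, and with no scaling. The means were 5.25 ± 0.39 and 6.07 ± 0.61 (SD, n = 3 each), and after scaling the small wave mean was 1.76-fold the large wave mean. The difference, large wave minus small wave, was -0.82 ± 0.40 (SE, 95% confidence interval -1.73 to 0.10, limma, adjusted p = 0.778). As a place among all tested probes, 8.61% had a more negative difference and 18.8% a larger one in either direction. Without small wave replicate 2, the array with the highest scaled ASIP signal, the difference was -0.47. With no scaling between arrays it was -0.056.

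The other ASIP probe, A_70_P027462, is no independent replicate, since it reads the same RNA. Its log2 scaled signals were 0.45 and 1.29 in large wave replicates 1 and 3 and 1.004, 2.60 and 1.42 in small wave replicates 1 to 3. Here the groups overlapped, with large wave replicate 3 above small wave replicate 1. The difference was -0.80 ± 0.55 (SE, 95% confidence interval -2.11 to 0.51, limma, adjusted p = 0.778). It was -0.34 without small wave replicate 2, whose spot also had a local background marked as an outlier, and 0.16 with no scaling between arrays.

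For TYR, the log2 scaled signals of A_70_P008181 were -2.56, -2.25 and -3.62 in large wave replicates 1 to 3. They were -2.68, -2.45 and -4.04 in small wave replicates 1 to 3. The groups overlapped throughout, and the lowest value of each group was that of replicate 3. The means were -2.81 ± 0.72 and -3.06 ± 0.86 (SD, n = 3 each), with a difference of 0.25 ± 0.59 (SE, 95% confidence interval -1.12 to 1.62, limma, adjusted p = 0.919). The interval reaches more than 1 log2 unit to either side, so these arrays do not show that tyrosinase RNA was alike in both coats. The sign also turned: leaving out small wave replicate 3 gave -0.24 and leaving out large wave replicate 2 gave -0.031. It was -0.20 with array brightness as a covariate and -0.29 with array weights. In whole skin, fewer melanocytes and less tyrosinase RNA in each melanocyte cannot be told apart.

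The replicate numbers were taken to pair lambs of one dam, which no label states. A_70_P027461 of ASIP was lower in the large wave lamb of each pair, by differences of -0.81, -1.53 and -0.11 in pairs 1, 2 and 3. TYR was higher in the large wave lamb of each pair, by 0.12, 0.20 and 0.43. Among probes with 6 values, 18.3% were lower and 17.5% higher in the large wave lamb of all 3 pairs. Each set of 3 differences had an exact two-sided sign-flip permutation p of 0.25, the smallest that 3 pairs allow. On the log2 scaled signal pair 3 differed least in ASIP and most in TYR. The TYR difference of pair 3 rests on a spot not well above background, and was -0.15 after normexp background correction. In the authors' deposited table ASIP was lower in 2 of 3 pairs, with 0.58 in pair 3, and TYR was higher in 2 of 3.

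On the log2 scaled signal TYR had a wider range between pairs than within them. Its pair means were -2.62, -2.35 and -3.83 for pairs 1, 2 and 3, while the largest difference within a pair was 0.43. Both lambs numbered 3 had the lowest values on this scale, and the spot of small wave replicate 3 was not well above background. After normexp background correction the pair means were 7.15, 7.44 and 7.08, and small wave replicate 1, at 7.14, lay below small wave replicate 3, at 7.15. In a limma fit with coat pattern and pair number, chosen after these values were seen, the effect of the pair had an adjusted p of 0.568 for TYR. Over the probes tested, 8.78% had an unadjusted p under 0.05 for the pair and 0 passed after adjustment. For ASIP the pair means were 5.27, 6.001 and 5.70 (limma, adjusted p = 0.620). Since replicates 1, 2 and 3 lay in slide columns 2, 3 and 4, the dam and the slide column cannot be told apart. With the pair as a block, the difference between coats was -0.82 ± 0.35 for ASIP (SE, limma, adjusted p = 0.624) and 0.25 ± 0.38 for TYR (adjusted p = 0.814).

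**Figure D2:**
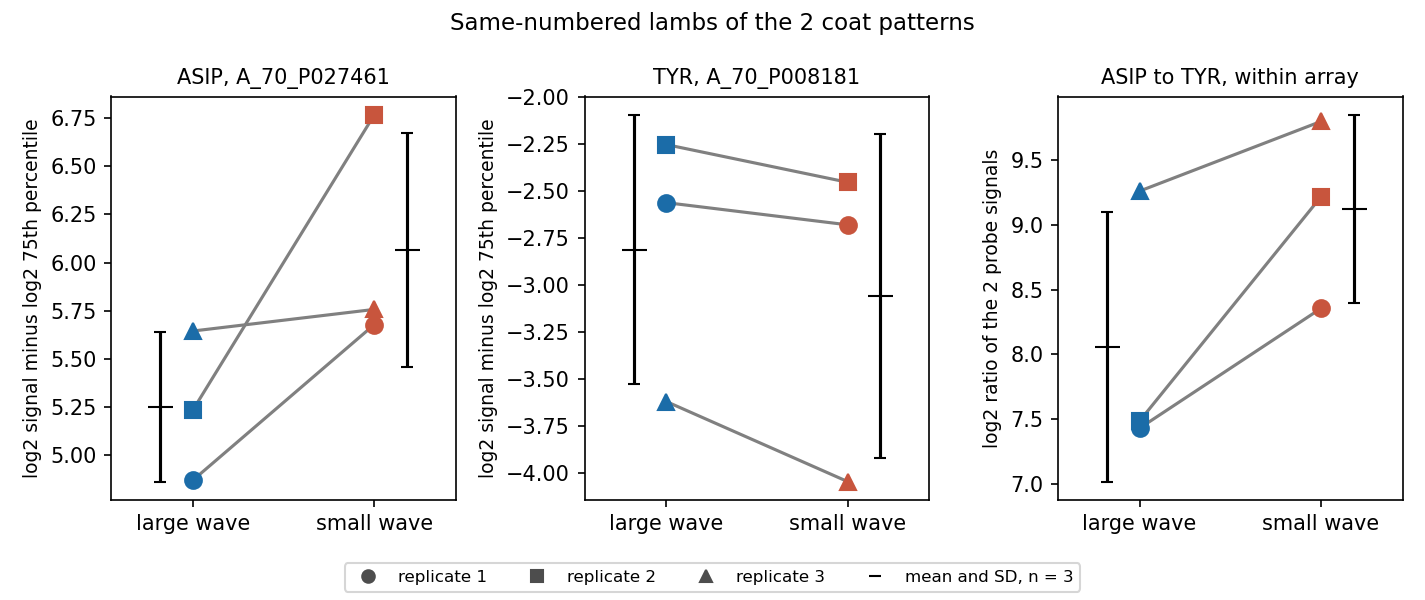
Log2 scaled signals of ASIP and TYR and the log2 ratio of their signals on each array, with lines joining the same-numbered lambs and bars showing the mean and SD of 3 arrays. On this scale ASIP and the ratio are lower in the large wave lamb of each pair and TYR is higher, while in the authors' deposited table, not plotted, each holds in 2 of 3 pairs. The lambs numbered 3 have TYR values of -3.62 and -4.04, the latter from a spot not well above background.

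The ratio of ASIP to TYR on one array is not moved by a single scaling factor for the array. For A_70_P027461 over A_70_P008181, the log2 ratio was 7.43, 7.49 and 9.26 in large wave replicates 1 to 3. It was 8.36, 9.22 and 9.80 in small wave replicates 1 to 3. Large wave replicates 1 and 2 had the lowest ratios and small wave replicate 3 the highest, but large wave replicate 3 lay above small wave replicates 1 and 2, so the groups overlapped. The means were 8.06 ± 1.04 and 9.12 ± 0.73 (SD, n = 3 each). The small wave mean was 2.09-fold the large wave mean, a difference of -1.06 on the log2 scale with an exact two-sided permutation p of 0.3, where 3 against 3 arrays cannot go below 0.1. The difference was -0.61 both in the authors' deposited table and after quantile normalization, whose values were nearly the same (exact permutation p = 0.4 for each). After normexp correction it was -0.69 (exact permutation p = 0.1). It was larger, -1.20, with the signal before the scanner software's factor for spot position, described below (exact permutation p = 0.2). In pairs 1, 2 and 3 the differences were -0.93, -1.73 and -0.54. In the authors' deposited table they were -0.86, -1.28 and 0.31, so pair 3 turned. A ratio of this kind shows that the 2 signals changed unequally between arrays, not which of them changed. The highest ratio rests on a TYR spot that was not well above background: without small wave replicate 3 the difference was -0.73. Leaving out large wave replicate 3 gave -1.67.

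Over the 6 arrays, ASIP and TYR log2 scaled signals had Pearson's r = -0.062 (exact permutation p = 0.901) and Spearman's rho = -0.26 (exact permutation p = 0.658), both two-sided. The arrays farthest from the ASIP median were large wave replicate 1 and small wave replicate 2; r was -0.78 over the 4 others. This was the 1 relation computed between the genes, neither coefficient passed, and r rested on those 2 arrays.

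How the scanner software treats a spot also moved these values. It multiplies the background-subtracted signal by a factor for the spot's position on the array, and at A_70_P027461 this factor was 0.749 in small wave replicate 3 and 0.975 to 1.17 on the other arrays. With the signal before this step, an alternative chosen after the values were seen, the ASIP difference was -0.99 ± 0.36 (SE, 95% confidence interval -1.83 to -0.15, limma, adjusted p = 0.780). The pair differences were then more alike, -0.81, -1.33 and -0.81. With the pair as a block the ASIP difference was -0.99 ± 0.27 (SE, limma, adjusted p = 0.642). TYR had a difference of 0.22 with this signal, and the ratio one of -1.20 (exact permutation p = 0.2). In quantile-normalised values and the authors' deposited table, which were nearly the same, the ASIP difference was smaller, -0.44 and -0.45. The lowest adjusted p of ASIP A_70_P027461 over its 27 alternatives was 0.175 in limma, with array weights, where the difference was -1.27.

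**Figure D3:**
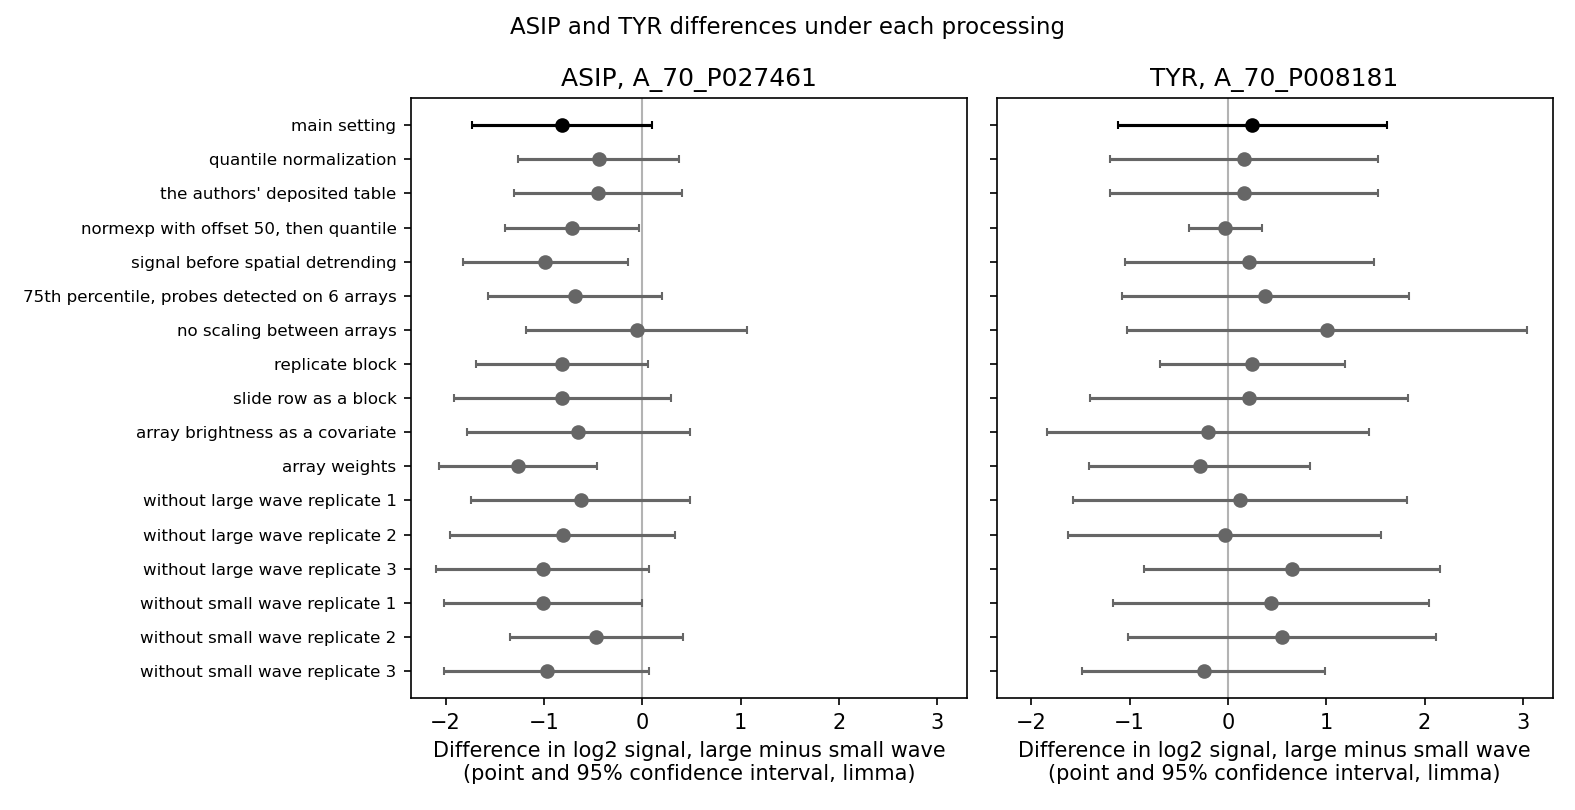
Difference in log2 signal between large wave and small wave skin, with 95% confidence intervals from limma, for ASIP A_70_P027461 and TYR A_70_P008181 under the main setting and alternatives. The signal before spatial detrending is here the background-subtracted signal before the factor for spot position. All plotted ASIP differences are below 0, from -1.27 to -0.056, while the TYR differences lie on both sides of 0.

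Other pigmentation genes could be followed only in small number, because genes on this array are named here only where a probe carries a RefSeq accession. In the melanocortin pathway 5 of 17 listed genes had a named probe and 3 were tested, with 0 passing in either direction. The median difference of the 3 was ASIP's own value, -0.82, beside -0.019 over all tested probes, and so describes no other gene of the pathway. POMC, the precursor of the peptides that stimulate the receptor, was well above background on 5 of 6 arrays with both probes. Its probes differed by 0.13 ± 0.65 and -0.24 ± 0.74 (SE). PRKACA, a catalytic subunit of the cAMP-dependent kinase that acts downstream of the receptor, differed by -0.92 ± 0.48 and -0.12 ± 0.54 at its probes. The ACTH receptor MC2R was not well above background on any array, and the melanocortin receptor MC5R on 1 array.

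Of 14 genes for melanin synthesis and the melanosome, TYR was the 1 with a named probe, and it was also the 1 of 8 melanocyte markers. Whether the TYR values followed the amount of melanocytes was therefore not tested. Of 13 genes for the development of melanocytes 3 were tested and 0 passed in either direction, with a median difference of -0.59. EDN1, endothelin 1, which stimulates melanocytes, differed by -1.29 ± 0.60 (SE, limma, adjusted p = 0.778), and by -0.30 after normexp background correction with an offset of 50, which shrinks the differences of dim probes. It had -2.23, -2.64 and -2.92 in large wave replicates 1 to 3, and the small wave lambs of these numbers had -2.51, -1.22 and -0.19, so that the groups overlapped. TFAP2A, a transcription factor of the neural crest and the epidermis, differed by -0.59 ± 0.43 (SE) and -0.82 ± 0.51 at its probes. With spots marked as outliers left out, the former rests on 3 large wave and 2 small wave arrays. The latter rests on 2 and 2. The former is also the median of the list. FGF2, a growth factor for melanocytes, differed by -0.54 ± 0.60 and -0.38 ± 0.57. None of the 4 genes listed as neighbours of ASIP on the chromosome had a named probe.

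**Figure D4:**
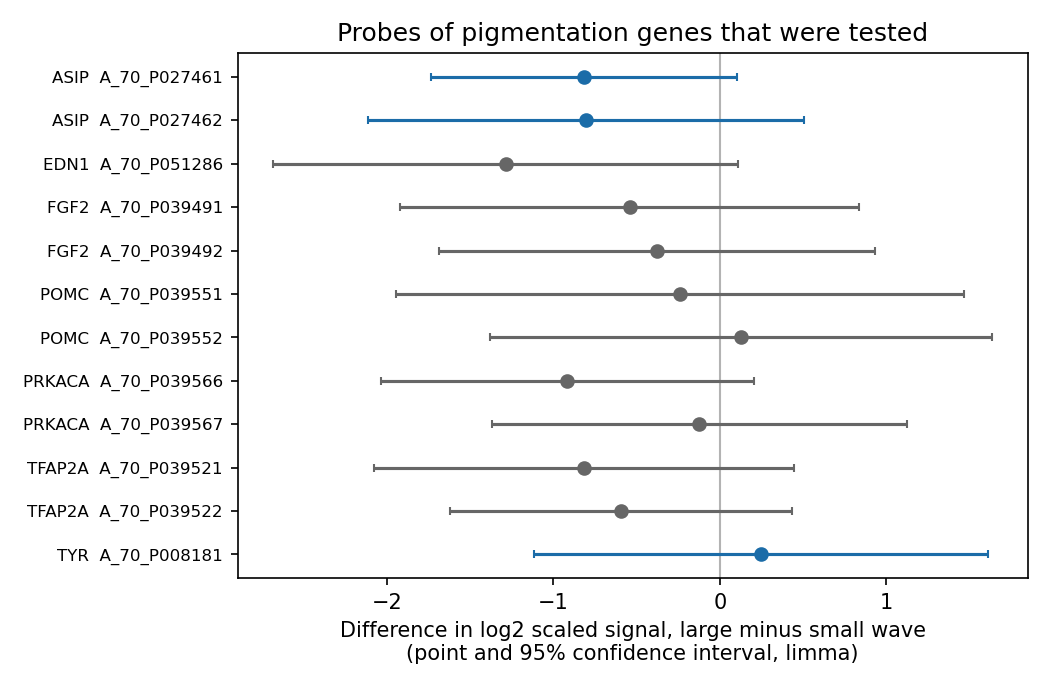
Difference in log2 scaled signal, large wave minus small wave, with 95% confidence intervals from limma, for the 12 tested probes of pigmentation genes, ASIP and TYR in blue. Each interval includes 0.

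Markers of other skin cells that could carry these signals were summed on each array as multiples of its 75th percentile. The 9 keratinocyte and hair shaft genes with a probe, of 16 listed, summed to 623 to 770 in large wave and 592 to 1065 in small wave arrays and all 9 were tested. For 5 of these 9 genes a spot was marked as an outlier on 1 array or more and was kept in the sums. For 4 adipocyte genes of 11 the sums were 3.93 to 4.53 in large wave and 4.64 to 8.13 in small wave arrays. They were lower in each large wave array, but narrowly: large wave replicate 3 had 4.53 and small wave replicate 2 had 4.64. The sum of 8.13 was that of small wave replicate 3, the dimmest array. Among single probes measured on all 6 arrays, 4.89% were lower in large wave arrays without overlap. PPARG was the brightest of the 4 adipocyte genes and weighs most in the sum. Its difference was -0.39 ± 0.34 (SE, limma, adjusted p = 0.782), and -0.16 in the authors' deposited table. All 4 genes had negative differences and 0 passed, where the median difference over all tested probes was -0.019. After normexp correction the differences were -0.14 for PLIN1, -0.089 for LPL, -0.18 for PPARG and -0.20 for DGAT1. For 2 skeletal muscle genes of 8 the sums were 0.416 to 0.685 and 0.364 to 0.482. These 2 genes went opposite ways: TNNC2 differed by -1.35 ± 0.43 and the brighter MYL11 by 0.74 ± 0.37 (SE, limma, adjusted p = 0.778 for each). The 4 tested dermal papilla and fibroblast genes, of 14 listed, summed to 38.8 to 48.2 and to 1.78 to 64.6. This lowest sum, in small wave replicate 3, holds a decorin (DCN) spot marked as an outlier. DCN was the brightest of these 4 genes and weighs most in the sum. The differences were 0.81 for BMP4, 0.62 for FGF10, -0.76 for FGF7 and 0.097 for DCN, the last over 2 arrays in each group. The part of these cells in the ASIP difference was not tested.

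The genes whose log2 scaled signal ran most like that of ASIP over the 6 arrays were named by Pearson's r among 307 named genes with 6 values. They were OXT (r = 0.93), TRPM7 (r = 0.80), PTGDS (r = 0.76), LOC443344 (r = 0.75) and CRYAB (r = 0.75). For TYR they were CFL1 (r = 0.97), NPPC (r = 0.96), CCL25 (r = 0.95), AURKA (r = 0.94) and BHLHE40 (r = 0.93). CFL1 was well above background on 6 arrays, but NPPC, CCL25, AURKA and BHLHE40 on only 5, as was TYR. A shared lack of signal on a dim array could therefore add to these r values, which was not tested. The lists had 0 genes in common. These are the highest of many values over few arrays that also share their scaling, and they are given as a description only.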

How the data were processed

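Dorsal skin RNA of 6 lambs was measured on one-colour Agilent arrays. The authors deposited spot intensity values from Agilent Feature Extraction. Its version was 10.7.3.1 in the file headers and 10.7 in the submitters' processing notes. Its processed signal is background-subtracted and adjusted for position, per the file headers, and not scaled between arrays. The authors' deposited table holds log2 values, with normalization not given in the sources used here. It entered as an alternative. Its values for ASIP A_70_P027461 and TYR A_70_P008181 were nearly those of the quantile normalization done here. In small wave replicate 2, for example, ASIP had 14.06 in the deposited table and 14.05 after quantile normalization. These alternatives are therefore not separate checks.

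From log2 of the processed signal, log2 of the array's own 75th percentile over 15208 spots was subtracted. Spots of a probe were averaged, spots marked as outliers were left out, and 0 were saturated. Probes well above background on at least 3 arrays were kept (10042, with 10041 tested). Groups were compared with limma 3.58.1 in R 4.3.3 (variance trend, Benjamini-Hochberg over all probes, threshold 0.05). The brightest kept probe stood for a gene. The ratio used exact permutations. Of 786 probes with a RefSeq accession, 767 were named through the table of assembly ARS-UI_Ramb_v3.0. No genome was used and no coordinates are given.

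All probes of ASIP and TYR are described, every listed pigmentation gene with a named probe is given, and the 5 genes most alike in pattern are named. The members and lists were chosen with earlier results of these data known. The replicate numbers were taken to pair the lambs, which no label states. Deviations from group means correlated at 0.30, 0.18 and 0.21 between same-numbered lambs. These values were not set against those of differently numbered lambs, and same-numbered lambs shared a slide column. They therefore cannot show that the numbers mark dams. The main model had no block. Alternatives were normexp background correction (offset 50) with quantile normalization, quantile normalization alone, other scalings and filters, the authors' deposited table, blocks, weights and each array left out. The sample titles give breed, age, coat and replicate number, and do not say how the lambs are related. The shared sire and the pairing within dams come from the series' design text. With 3 arrays per group the precision is limited. On simulated data for this comparison with 9223 probes, limma recovered 0% of log2 changes of 1, 32.8% of changes of 2 and 47.0% of changes of 3.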

Additional observations from a re-analysis of the deposited data

How the results depend on the processing

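Some alternatives were chosen after seeing the data. These used the signal before the factor for spot position, marked backgrounds, or the pair as a block with other processing. The ASIP difference was negative in 27 alternatives, from -1.27 to -0.056. It had 16 distinct values apart from the main one, since filters, variance settings and a block over complete pairs cannot move it. It passed in none (limma, adjusted p from 0.175 to 0.999), and leaving out 1 array gave -1.01 to -0.47. Its other probe turned to 0.16 with no scaling between arrays. TYR turned to -0.027 after normexp correction, with or without the replicate block, -0.20 with brightness as a covariate and -0.29 with array weights. Leaving out 1 array gave TYR -0.24 to 0.65, with -0.031 without large wave replicate 2. TYR had no value with a filter on all 6 arrays. The mean over the TYR probes (-0.38) and the ratio with the other TYR probe (0.19) rest on a probe at background and say nothing of stability. The offset of 50 by itself shrinks differences of a probe as dim as TYR; other causes were not tested. The ratio was -1.67 to -0.73 with 1 array left out. With the replicate block, the paired ratio equals -1.06 by construction, and its exact sign-flip permutation p of 0.25 is the smallest that 3 pairs allow. The block changed no call. The count of probes passing was 0 in every alternative fit, leaving out each array included, and 384 at an unadjusted p. Signal over background limits TYR: its spot on the dimmest array was not well above background.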
